A study of Mus musculus with 2 samples.

Results

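Pdcd1, Lag3 and Havcr2 encode the inhibitory receptors PD-1, LAG-3 and TIM-3. These are 3 of the 479 genes counted in lung sections of mice with small cell lung cancer. They were followed by gene name in every segmented cell of both sections and in cell classes set by marker transcripts. T cells were cells with 1 or more transcripts of Cd3d and Cd3e together, and were split by Cd8a. Myeloid cells had no Cd3d or Cd3e and 2 or more transcripts of 10 myeloid genes (Itgam, Mrc1, Cd68, Csf3r, Folr2, F13a1, Cxcr2, Ly6g, Cd209a and Marco). The remaining cells had neither.

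The question of the study was how loss of Cracd alters these tumors and the immune cells around them. The RPR2 section came from a C57BL/6 mouse with floxed Rb1, Trp53 and Rbl2, deleted in the lung by adenoviral Cre given through the trachea at 10 weeks of age, and the CRPR2 section from a mouse with the same deletions plus a germline Cracd knockout. Lungs were collected 6 months after Cre, per the methods of the study, and mice of both sexes were used. The germline deletion means that the CRPR2 T cells and myeloid cells lacked Cracd as well as the tumor cells. Xenium In Situ, which counts transcripts in place by hybridized probes and imaging, was run on both genotypes in 1 block, and each is held as 1 cell matrix, called a section here. The reporting summary of the study speaks of more than 1 tumor sample per condition, and the study examined more CRPR2 than RPR2 tumors by Xenium. However, no map of cells to tumors was used here. No test between genotypes was therefore possible, and genotype, mouse, section and tumor content cannot be told apart. The intervals given below are exact 95% intervals and cover counting error only.

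PD-1 is induced when a T cell receptor is engaged and dampens signaling from the receptor after binding PD-L1 or PD-L2. LAG-3 binds MHC class II and other ligands and is likewise induced by activation, and it is also made by some dendritic cells. TIM-3 appears late on activated T cells, but macrophages and dendritic cells carry it constitutively. Cells with all 3 receptors are typically described as exhausted after long exposure to antigen. In small cell lung cancer the tumor cells are mostly neuroendocrine and carry little MHC class I.

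The RPR2 section held 154818 cells with a median of 100 gene transcripts, and the CRPR2 section held 342845 cells with a median of 101. A minimum of 20 gene transcripts per cell kept 152915 and 340609 of them. The sections shared 8 cell barcodes. The T class held 5385 cells in RPR2 (3.52% of cells) and 7292 in CRPR2 (2.14%), and the myeloid class 13681 and 28330. Of all cells, 11.8% in RPR2 and 66.3% in CRPR2 were outside both classes and had 2 or more transcripts of 12 neuroendocrine genes (the NE gate). The endothelial gate, set by 2 or more transcripts of endothelial genes, held 44.1% and 11.5% of cells. The T cells of the 2 sections thus came from tissue of unlike make-up, and the part of this in their ratios was not tested. Of 12 T cell markers fixed, only Cd3d, Cd3e, Cd8a and Satb1 are on the panel, and Cd4 is not, so T cells without Cd8a cannot be called helper cells, and a low count of Cd8a leaves some CD8 T cells among them. Cells were taken as segmented by nuclear expansion, no doublet caller was run, and many T cells carried markers of another class. In RPR2, 47.9% of T cells also met the endothelial gate, 14.6% the myeloid gate and 2.69% the NE gate. In CRPR2 these shares were 35.4%, 21.3% and 18.1%. Results for T cells are therefore also given for cells that met no other gate (2162 in RPR2 and 2905 in CRPR2).

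The 3 genes sat in different cells. Of the 708 Pdcd1 transcripts of RPR2, 73.3% (69.9 to 76.5) were in T cells, and of the 3378 of CRPR2, 72.6% (71.1 to 74.1). Havcr2 was mostly myeloid, with 66.9% (65.6 to 68.1) of 5471 transcripts in RPR2 and 69.0% (68.3 to 69.8) of 16326 in CRPR2. Lag3 was mainly outside both classes. T cells held 7.09% (5.90 to 8.43) of its 1651 transcripts in RPR2 and 8.61% (7.99 to 9.27) of 7502 in CRPR2, myeloid cells held 21.0% and 18.3%, and NE-gate cells held 19.6% (17.7 to 21.6) and 56.0% (54.9 to 57.2). Levels below are CPM, the number of transcripts of a gene in a class of cells per 1000000 transcripts of all genes in those cells. In such sums, more cells with a transcript and more transcripts per cell are not separated. Probes differ in efficiency, so the CPM of different genes were not compared with each other.

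**Figure D1:**
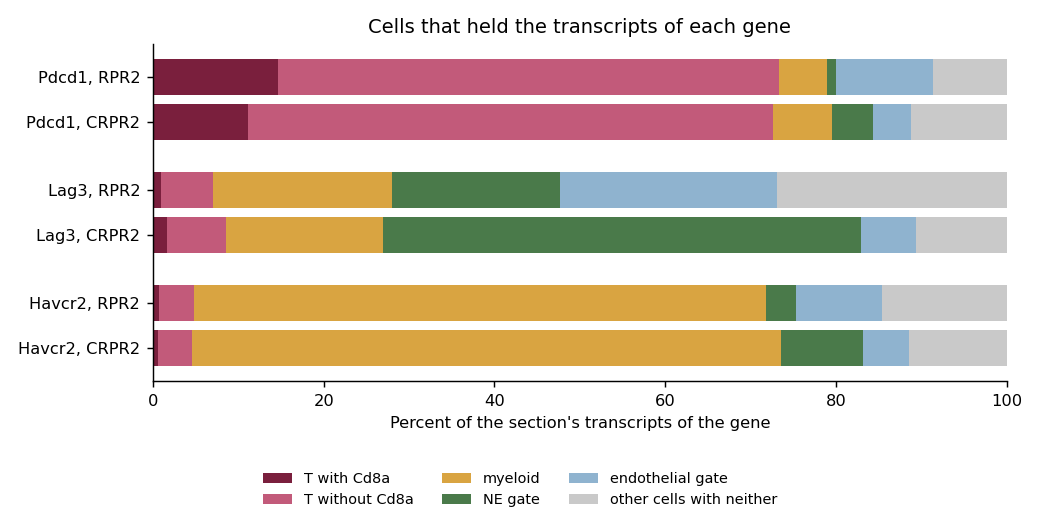
Percent of each section's Pdcd1, Lag3 and Havcr2 transcripts (x axis) held by each cell class, for the 2 sections (y axis). Pdcd1 lay mostly in T cells (73.3% in RPR2 and 72.6% in CRPR2), Havcr2 in myeloid cells (66.9% and 69.0%), and Lag3 in neither class (72.0% and 73.1%), with NE-gate cells holding 56.0% of it in CRPR2.

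In T cells with Cd8a, the Pdcd1 level was 1703 CPM (1391 to 2063, 674 cells) in RPR2 against 4281 CPM (3859 to 4737, 887 cells) in CRPR2, which is 2.51-fold higher (2.02 to 3.15). In T cells without Cd8a it was 889 CPM (805 to 978, 4711 cells) in RPR2 against 3160 CPM (3025 to 3298, 6405 cells) in CRPR2, which is 3.56-fold higher (3.20 to 3.96). The intervals of the 2 sections did not overlap in either class. Within each section Pdcd1 was higher with Cd8a than without, by 1.92-fold (1.53 to 2.38) in RPR2 and 1.35-fold (1.21 to 1.51) in CRPR2. Among cells that met no other gate, the ratio was 1.88-fold (1.34 to 2.59) in RPR2 (2306 against 1225 CPM), while in CRPR2 the interval held 1 (5709 against 5312 CPM, 1.07-fold, 0.909 to 1.26).

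A larger share of T cells carried Pdcd1 in CRPR2, and the unthinned share of those with 2 or more transcripts was also higher. After each cell was thinned to 50 transcripts, so that depth could not set the share, 7.93% (5.88 to 10.4) of T cells with Cd8a had Pdcd1 in RPR2 and 15.6% (13.1 to 18.2) in CRPR2. Without Cd8a the shares were 3.56% (3.02 to 4.18) and 11.6% (10.8 to 12.5). Unthinned, they were 11.0% and 23.3% with Cd8a, and 5.50% and 16.2% without. Among cells with Pdcd1, 2 or more transcripts were found in 29.7% of 74 RPR2 and 42.0% of 207 CRPR2 T cells with Cd8a. Without Cd8a it was 31.7% of 259 and 42.7% of 1035. No interval was computed for these shares. The highest count in a cell was 11 in both sections. For comparison, the unthinned share with Pdcd1 in NE-gate cells was 0.0388% in RPR2 and 0.0708% in CRPR2, at median depths of 104 and 99 transcripts against 91 and 93 for T cells. Cells with Cd3d or Cd3e as well as NE transcripts were placed in the T class. The NE-gate share therefore does not measure transcripts taken up from T cells together with Cd3d or Cd3e.

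Lag3 was the member with the largest ratio in T cells with Cd8a. It was at 262 CPM (150 to 425, 16 transcripts) in RPR2 against 1450 CPM (1209 to 1725, 127 transcripts) in CRPR2, 5.53-fold higher (3.28 to 9.98). In T cells without Cd8a it was at 216 CPM (176 to 263) in RPR2 against 789 CPM (722 to 860) in CRPR2, 3.65-fold higher (2.94 to 4.56). The thinned share of cells with Lag3 was 1.01% (0.372 to 2.19) and 7.28% (5.59 to 9.30) with Cd8a, and 1.29% (0.964 to 1.68) and 3.53% (3.06 to 4.04) without. NE-gate cells had thinned shares of 0.827% (0.694 to 0.979) and 0.833%, and endothelial-gate cells 0.291% and 0.503%. The intervals of both RPR2 shares in T cells overlap that of NE-gate cells in the same section, and the CRPR2 shares lie above all of these. Lag3 in T cells with Cd8a over those without was 1.21-fold (0.667 to 2.06) in RPR2, not distinguishable from no difference at this depth, and 1.84-fold (1.50 to 2.24) in CRPR2. Among CRPR2 cells that met no other gate it was 1.39-fold, and the interval (0.983 to 1.92) held 1.

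Havcr2 had the smallest ratio of the members in both T cell classes. In T cells with Cd8a it was at 655 CPM (468 to 892, 40 transcripts) in RPR2 against 1084 CPM (877 to 1326, 95 transcripts) in CRPR2, 1.66-fold higher (1.13 to 2.46), and in T cells without Cd8a at 484 CPM (423 to 551) and 980 CPM (906 to 1059), 2.03-fold higher (1.74 to 2.37). The thinned shares were 2.36% (1.30 to 3.93) and 4.69% (3.34 to 6.38) with Cd8a, and 1.92% (1.52 to 2.38) and 4.52% (3.99 to 5.10) without, against 0.488% and 0.321% in NE-gate cells. In T cells with Cd8a that met no other gate the ratio was smaller, where Havcr2 was at 865 CPM (18 transcripts) in RPR2 against 940 CPM (28 transcripts) in CRPR2, with a log2 ratio of 0.12 (-0.78 to 1.06). In T cells without Cd8a that met no other gate it was 1.13 (0.73 to 1.54). For Pdcd1 and Lag3 the same cells gave log2 ratios of 1.31 (0.84 to 1.80) and 2.17 (1.01 to 3.56) with Cd8a, and 2.12 (1.90 to 2.34) and 2.49 (1.95 to 3.08) without.

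**Figure D2:**
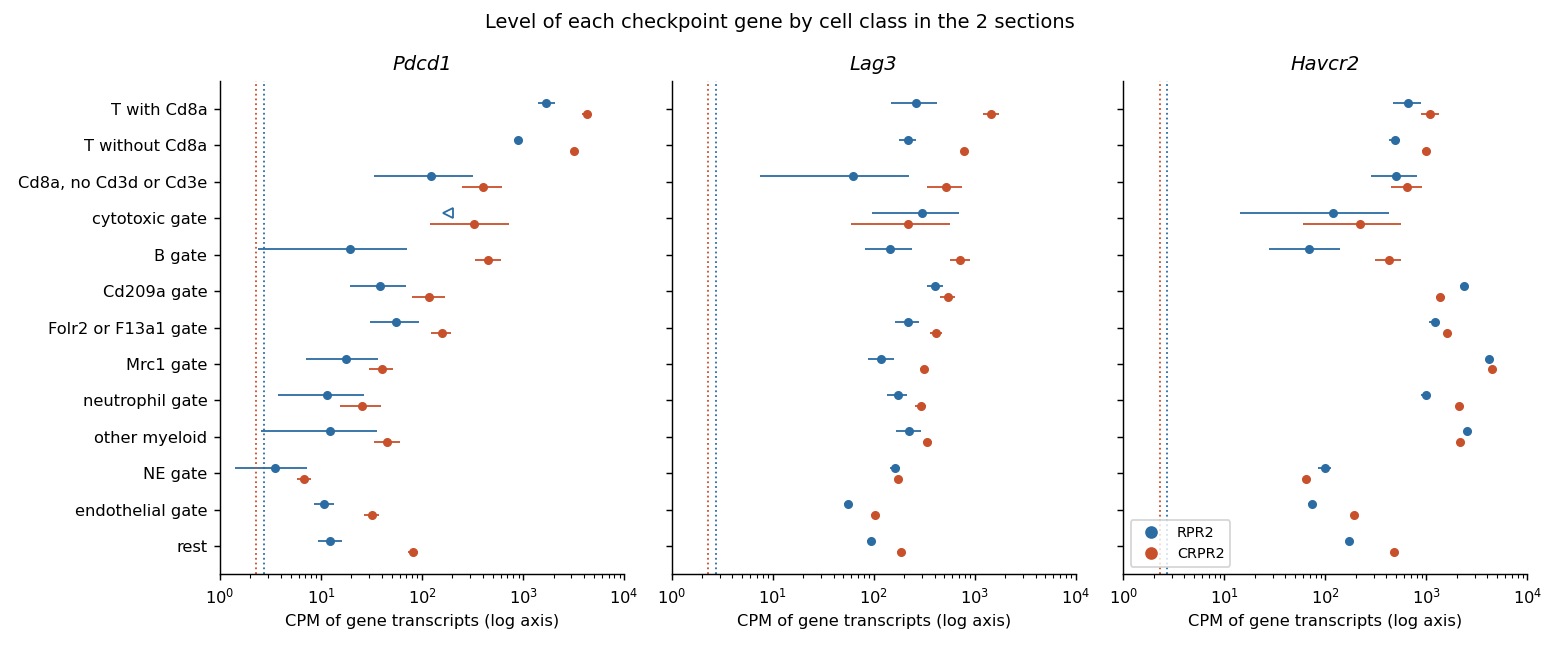
Level of each gene in CPM (x axis, log scale) in 13 cell classes (y axis), for RPR2 (blue) and CRPR2 (orange), with exact Poisson intervals that cover counting error only. Dotted lines mark the mean of the negative control probes (2.72 and 2.29 CPM), and the open triangle is the limit that a count of 0 allows. Pdcd1 is highest in T cells with Cd8a (1703 and 4281 CPM) and Havcr2 in the Mrc1 gate (4193 and 4472 CPM).

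Many genes had unequal levels in the sections within a class. Among genes with 20 or more transcripts in T cells with Cd8a, 26.4% of 307 were 2-fold or more higher in CRPR2, against 2 of the 3 members, Pdcd1 and Lag3. In T cells without Cd8a, 22.2% of 432 genes were that much higher, against 3 of the 3. By size of ratio, Lag3 ranked 14 of 307 and Pdcd1 62 in T cells with Cd8a, and they ranked 44 and 46 of 432 in T cells without Cd8a, where Havcr2 ranked 95. The median log2 ratio of all genes was 0.25 and 0.07. Genes that ranked above the members included the NE-gate genes Snap25 and Ly6h (log2 2.75 and 2.74 in T cells without Cd8a). The part of such transcripts from other cells in the members' ratios was not tested beyond the cells that met no other gate. Cd3e (log2 0.04 in T cells without Cd8a and -0.18 in those with Cd8a) and Ptprc (0.18 and -0.03), the leukocyte phosphatase CD45, were nearer to even. Cd3e helps to set the T gate, so its near-even ratio was partly fixed by the gate, and Ptprc was named after its values were seen.

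The other genes of the checkpoint list that are on the panel are Ctla4, an inhibitory receptor for CD80 and CD86, and the ligands Cd80 and Cd86. All 3 were 2-fold or more higher in CRPR2 in T cells without Cd8a (log2 1.25, 1.57 and 1.19), against 22.2% of all genes. None was in T cells with Cd8a (0.97, 0.95 and 0.45), against 26.4% of all genes. In the latter class the intervals of Ctla4 (0.61 to 1.34) and Cd80 (0.43 to 1.49) held log2 1, and that of Cd86 lay below it (0.04 to 0.87). The difference between the 2 classes was not tested. The cytotoxic list had Prf1, the pore-forming protein perforin, and Gzmb, granzyme B. With Cd8a the intervals of both ratios held 0, with Prf1 at 2735 CPM in RPR2 against 2603 CPM in CRPR2 (log2 -0.07, -0.37 to 0.23) and Gzmb at 1654 and 1621 CPM (log2 -0.03, -0.41 to 0.35). In T cells without Cd8a, Prf1 was lower in CRPR2 (log2 -0.51, -0.82 to -0.20) and Gzmb higher (log2 1.31, 0.95 to 1.68). The cycling genes Mki67, Top2a and Pclaf were higher in both classes, by log2 1.45, 1.52 and 0.67 with Cd8a and 2.01, 2.14 and 1.28 without. Satb1, a chromatin organizer of T cells, was lower, by log2 -0.55 and -0.92. The cycling genes were also higher in myeloid cells (log2 1.33, 1.46 and 0.99) and in cells with neither (2.66, 2.61 and 1.63). The part of transcripts from other cells in the cycling genes of T cells was not tested.

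**Figure D3:**
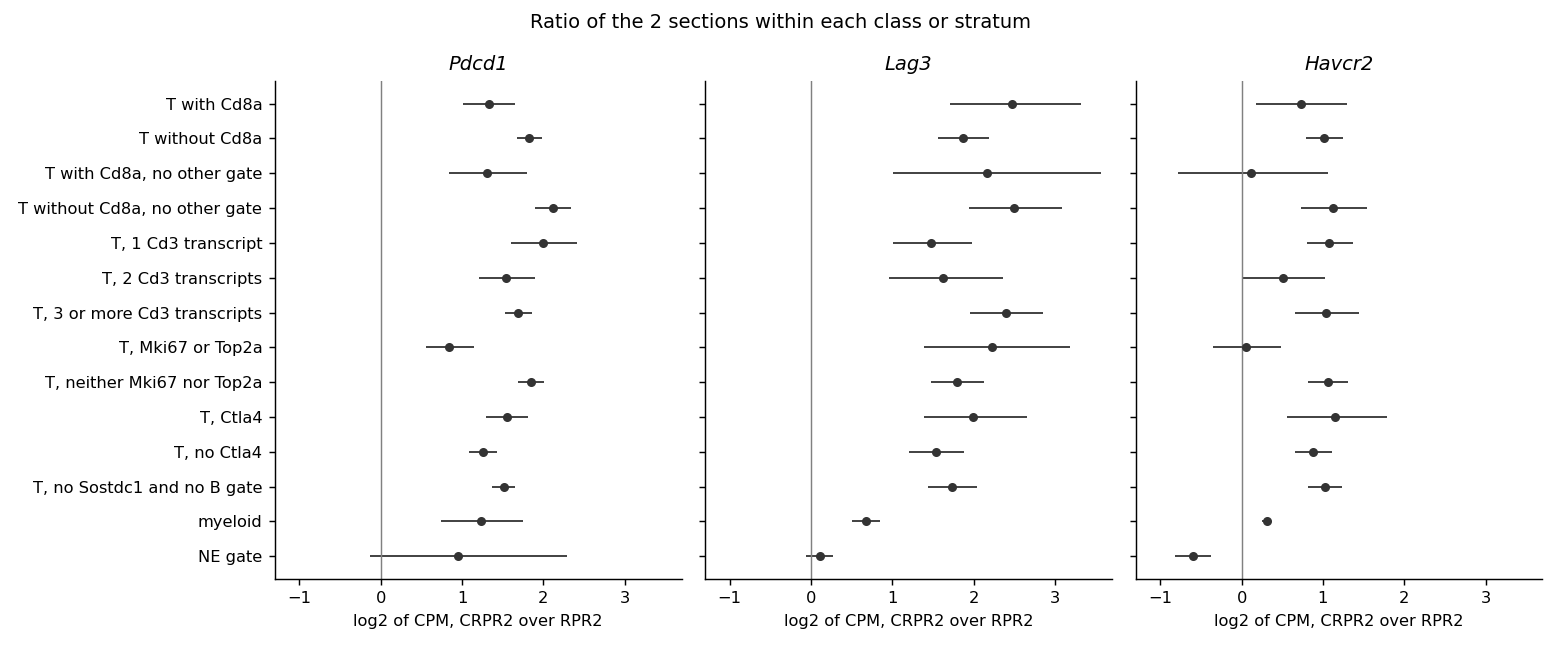
Log2 of the CPM in CRPR2 over RPR2 (x axis) for each gene within classes and strata of cells (y axis), with exact conditional intervals for counting error. In the T cell rows shown, the points of Pdcd1 and Lag3 lie above 0 with their intervals, while Havcr2 lies at 0.12 in T cells with Cd8a that met no other gate and at 0.05 in those with Mki67 or Top2a, and Lag3 in NE-gate cells at 0.11.

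The log2 ratios of Pdcd1 and Lag3 were above 0 in the strata of T cells that had both genes in both sections, and the counting interval reached 0 in 1 of them. In T cells that also met the NE gate, Pdcd1 was at 920 CPM in RPR2 against 1520 CPM in CRPR2 (0.997 to 2.94 as a fold interval). Lag3 was at 57.5 and 509 CPM there, with 1 RPR2 cell holding it and a fold interval of 1.54 to 354. In T cells that also met the myeloid gate the log2 ratios were 0.84 (0.57 to 1.12) for Pdcd1, 1.11 (0.62 to 1.63) for Lag3 and 0.21 (-0.07 to 0.50) for Havcr2, and in those that also met the endothelial gate 1.72, 1.69 and 1.23. Cells with a single Cd3d or Cd3e transcript, which include cells that are not T cells, made up 48.1% of the T class in RPR2 and 45.8% in CRPR2. They had Pdcd1 at 225 CPM in RPR2 against 901 CPM in CRPR2, and cells with 3 or more had 1940 and 6282 CPM. Pdcd1 was thus 8.61-fold (6.55 to 11.5) and 6.98-fold (6.19 to 7.87) higher with 3 or more Cd3 transcripts than with 1. Havcr2 was lower with more Cd3 transcripts in CRPR2, at 0.738-fold (0.624 to 0.872), and the interval in RPR2 held 1 (0.757-fold, 0.565 to 1.01). Lag3 was 2.73-fold (2.27 to 3.28) higher in CRPR2, and in RPR2 the interval held 1 (1.45-fold, 0.946 to 2.21). In T cells with neither Mki67 nor Top2a, the section log2 ratios were 1.85 for Pdcd1, 1.80 for Lag3 and 1.06 for Havcr2. In those with either, which made up 8.78% of RPR2 and 32.5% of CRPR2 T cells, Pdcd1 was at 2003 CPM in RPR2 against 3592 CPM in CRPR2 (log2 0.84, 0.55 to 1.14), Lag3 at 223 and 1036 CPM (log2 2.22, 1.39 to 3.19), and Havcr2 at 1094 and 1136 CPM (log2 0.05, -0.35 to 0.48).

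Pdcd1 was higher in T cells with Ctla4. T cells with Ctla4 made up 8.88% of T cells in RPR2 and 21.3% in CRPR2, and their Pdcd1 was at 3042 CPM and 8916 CPM, 3.86-fold (3.16 to 4.70) and 4.73-fold (4.37 to 5.13) that of T cells without Ctla4. Lag3 was 2.72-fold (1.66 to 4.31) and 3.73-fold (3.19 to 4.37) higher in them, while Havcr2 was 1.43-fold (1.21 to 1.69) higher in CRPR2 and not distinguishable from even in RPR2 (1.19-fold, 0.770 to 1.78). Within T cells with Ctla4 the sections still differed, by log2 1.55 (1.30 to 1.81) for Pdcd1 and 1.99 (1.39 to 2.66) for Lag3. Splitting T cells with Cd8a by Prf1 or Gzmb gave Pdcd1 ratios whose intervals held 1, with 1983 CPM with and 1615 CPM without in RPR2 (1.23-fold, 0.771 to 1.91) and 4474 and 4216 CPM in CRPR2 (1.06-fold, 0.835 to 1.34). Lag3 was higher with Prf1 or Gzmb in CRPR2, at 2169 CPM against 1207 CPM (1.80-fold, 1.23 to 2.61), and was not distinguishable in RPR2 (4 and 12 transcripts). Havcr2 was 1.65-fold (1.05 to 2.55) higher with Prf1 or Gzmb in CRPR2, and in RPR2 the interval held 1 (0.922-fold, 0.386 to 1.98). The CRPR2 interval counts transcripts, of which a single T cell with Cd8a held up to 9. The thinned CRPR2 shares of cells with Havcr2 were 6.28% with Prf1 or Gzmb and 4.15% with neither, and their ratio was not computed.

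T cells with a transcript of a member were compared with T cells without it over all genes that had 20 or more transcripts in the positive cells of both sections together. A gene could thus enter through 1 section, and 2-fold was judged on the ratio without its interval. With Pdcd1, 5 of 306 genes (1.63%) were 2-fold or more higher in both sections. They were Sostdc1, Coch, Ctla4, Il1r2 and Lag3. In RPR2 the log2 interval lay above 1 only for Ctla4 (2.14 to 2.57). It reached below 1 for Sostdc1 (0.19 to 4.90), Coch (0.86 to 3.90), Il1r2 (0.83 to 2.90) and Lag3 (0.34 to 2.02). Sostdc1, a secreted antagonist of BMP and Wnt signaling that some follicular helper T cells make, had 3 and 346 transcripts in T cells with Pdcd1 and 7 and 56 in those without (RPR2 and CRPR2). In CRPR2, 147 T cells (2.02%) had Sostdc1 against 7 (0.130%) in RPR2, and the 147 had Pdcd1 at 28453 CPM and Lag3 at 5905 CPM. Sostdc1 was present in 9.18% (7.63 to 10.9) of CRPR2 T cells with Pdcd1 and 0.545% (0.376 to 0.765) of those without. T cells that also met the B cell gate (2 or more transcripts of B cell markers) had Pdcd1 at 1743 CPM in RPR2 (74 cells) and 5962 CPM in CRPR2 (359 cells). Without the cells that had Sostdc1 or met the B cell gate, the section log2 ratio in T cells was 1.51 (1.37 to 1.66) for Pdcd1, 1.73 (1.43 to 2.04) for Lag3 and 1.03 (0.82 to 1.24) for Havcr2, against 1.74, 1.97 and 0.98 with all T cells.

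With Lag3, 5 of 250 genes (2%) were 2-fold or more higher in T cells of both sections, and these were Dnase1l3, Prg2, Ctla4, Pdcd1 and Havcr2. The first is a DNase of dendritic cells and macrophages and the second the major basic protein of eosinophils. The log2 interval reached below 1 in RPR2 for Dnase1l3 (0.57 to 2.39), Pdcd1 (0.60 to 1.80) and Havcr2 (0.55 to 2.16). In CRPR2 it did so for Havcr2 (0.80 to 1.42). Of T cells with Lag3, 34.3% (25.3 to 44.2) met the myeloid gate in RPR2 and 29.5% (25.6 to 33.7) in CRPR2, against 14.2% and 20.7% of those without Lag3. With Havcr2, 27 of 276 genes (9.78%) were 2-fold or more higher, led by Trim29, Marco, Krt79, Plbd1 and Alox5ap, and they included the myeloid genes Cd68, Cd86, Itgam, Mrc1 and Csf3r. Of T cells with Havcr2, 50.5% (43.2 to 57.8) met the myeloid gate in RPR2 and 46.0% (41.7 to 50.4) in CRPR2, against 13.3% (12.4 to 14.3) and 19.4% (18.4 to 20.3) of T cells without it. For Pdcd1 the shares were 23.7% against 14.03% in RPR2 and 21.8% against 21.2% in CRPR2. Myeloid transcripts thus accompanied Havcr2 in T cells more than they did Pdcd1, and a T cell and a macrophage in contact cannot be told apart here from a T cell with both sets of transcripts. Cd8a itself was higher in T cells with Pdcd1, by log2 1.39 (1.21 to 1.57) in RPR2 and 0.96 (0.83 to 1.08) in CRPR2. In T cells with Havcr2 the log2 ratios of Cd8a were -0.32 (-0.69 to 0.03) and -0.25 (-0.46 to -0.04).

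Of the pairs of members in T cells, Pdcd1 and Lag3 in CRPR2 had the widest gap in share. Lag3 was found in 17.2% (15.2 to 19.4) of the 1242 CRPR2 T cells with Pdcd1 and in 4.86% (4.33 to 5.43) of those without, and in RPR2 in 4.20% (2.32 to 6.95) of 333 cells with Pdcd1 and 1.80% (1.45 to 2.21) of those without. The number of cells with both was 14 in RPR2 and 214 in CRPR2, where the product of the separate shares would give 6.49 and 86.5. Sostdc1 was in 114 of the 1242 CRPR2 T cells with Pdcd1 and in 61 of the 508 with Lag3. The pairing without these cells was not computed. Among CRPR2 T cells with Cd8a, 28.0% (22.0 to 34.7) of cells with Pdcd1 had Lag3 against 5.44% (3.86 to 7.42) of those without, and 61.1% (50.5 to 70.9) of the 95 cells with Lag3 had Pdcd1. After thinning to 50 transcripts, the CRPR2 shares over all T cells were 12.5% (10.3 to 15.1) and 2.82% (2.41 to 3.29), and the RPR2 shares 2.58% (0.842 to 5.91) and 1.19% (0.898 to 1.56), whose intervals overlap.

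By unthinned shares, Havcr2 was also more frequent in RPR2 T cells with Pdcd1, and in CRPR2 the gap was narrower and the intervals overlap. In RPR2, it was in 8.41% (5.66 to 11.9) of T cells with Pdcd1 and 3.21% (2.74 to 3.73) of those without, and in CRPR2 in 8.86% (7.34 to 10.6) and 6.84% (6.22 to 7.51). In T cells that met no other gate the shares were 9.09% against 2.50% in RPR2 and 7.51% against 5.002% in CRPR2. Among CRPR2 T cells with Cd8a they were 13.5% (9.18 to 18.95) against 5.74% (4.11 to 7.76), and in those without Cd8a 7.92% against 6.98%. The difference in pairing between sections was not tested. Lag3 and Havcr2 shared 11 RPR2 T cells and 62 CRPR2 T cells, with Havcr2 in 10.5% (5.35 to 18.0) and 12.2% (9.49 to 15.4) of cells with Lag3 against 3.39% and 6.81% without. In CRPR2 T cells that met no other gate these shares were 6.67% (3.69 to 10.9) and 5.45% (4.63 to 6.38), so no pairing was distinguishable there at this depth. In RPR2, 34 T cells that met no other gate had Lag3. Of these, 3 had Havcr2 as the only other member and 2 had all 3 genes, while Havcr2 was in 65 of all 2162 such T cells.

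**Figure D4:**
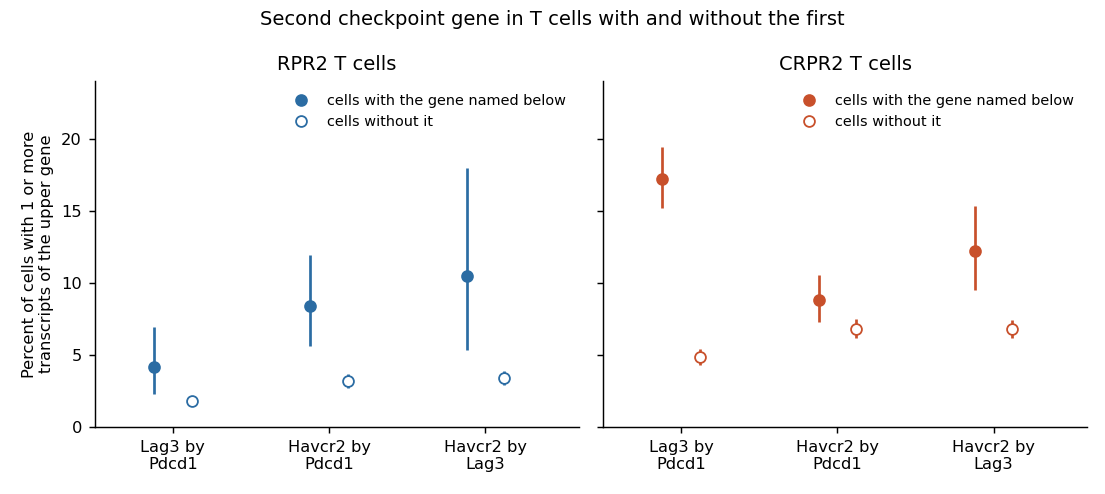
Percent of T cells with 1 or more transcripts of a second gene (y axis, upper name) among cells with (filled) and without (open) the first gene (lower name), in RPR2 and CRPR2, as deposited, with exact Clopper-Pearson intervals. The widest gap is for Lag3 by Pdcd1 in CRPR2 (17.2% against 4.86%), and the narrowest for Havcr2 by Pdcd1 in CRPR2 (8.86% against 6.84%).

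T cells with 2 or more of the 3 genes were 45 of 5385 in RPR2 (0.836%, 0.610 to 1.12) and 336 of 7292 in CRPR2 (4.61%, 4.14 to 5.11). With Cd8a they were 10 of 674 (1.48%, 0.714 to 2.71) and 81 of 887 (9.13%, 7.32 to 11.2). All 3 genes were found in 4 RPR2 T cells and 25 CRPR2 T cells, 1 and 12 of them with Cd8a. In T cells that met no other gate, 21 of 2162 (0.971%, 0.602 to 1.48) and 149 of 2905 (5.13%, 4.36 to 5.99) had 2 or more, and after thinning over all T cells 19 of 4717 (0.403%) and 149 of 6450 (2.31%). The unthinned share of T cells with each single gene was also higher in CRPR2. It was 6.18% and 17.0% for Pdcd1, 1.95% and 6.97% for Lag3, and 3.53% and 7.19% for Havcr2. The larger share with 2 or more genes in CRPR2 is therefore not a measure of pairing. The most frequent state of T cells with any member was Pdcd1 alone, in 295 of 579 in RPR2 and 943 of 1913 in CRPR2. Among cells with exactly 2 genes, the most frequent pair was Pdcd1 with Havcr2 in RPR2 (24 cells, against 10 for Pdcd1 with Lag3) and Pdcd1 with Lag3 in CRPR2 (189 cells, against 85 for Pdcd1 with Havcr2).

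In the myeloid class, Havcr2 was at 2273 CPM (2200 to 2348) in RPR2 against 2820 CPM (2769 to 2873) in CRPR2, 20.8-fold (19.6 to 22.1) and 21.3-fold (20.6 to 22.1) that of cells with neither gate, and its thinned share was 9.16% (8.66 to 9.68) and 11.5% (11.1 to 11.8). It was highest in the Mrc1 gate, cells with the mannose receptor of macrophages, at 4193 CPM (3993 to 4400) in RPR2 against 4472 CPM (4362 to 4585) in CRPR2. In RPR2 the other myeloid cells (2527 CPM) and the Cd209a gate (2328 CPM), which takes in dendritic cells of the monocyte lineage, came next with overlapping intervals, followed by the Folr2 or F13a1 gate (1203 CPM, 1072 to 1346), typical of resident macrophages and monocytes, and the neutrophil gate (983 CPM, 892 to 1081), whose intervals overlap. In CRPR2 the order below the Mrc1 gate was other myeloid (2133 CPM) and neutrophil gate (2116 CPM) with overlapping intervals, then the Folr2 or F13a1 gate (1596 CPM, 1487 to 1710) and the Cd209a gate (1377 CPM, 1239 to 1527), which also overlap. The Cd209a gate was thus 0.592-fold (0.519 to 0.674) its RPR2 level and the neutrophil gate 2.15-fold (1.93 to 2.40), while the Mrc1 gate differed by 1.07-fold (1.01 to 1.13). Myeloid cells with Cd86, a costimulatory ligand of activated antigen-presenting cells, had Havcr2 at 5784 CPM in RPR2 against 5471 CPM in CRPR2, 3.34-fold (3.12 to 3.58) and 2.55-fold (2.45 to 2.65) that of myeloid cells without it.

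Of the genes tested in the myeloid class, 16.9% of 473 were 2-fold or more higher in CRPR2, and Pdcd1 was the only member among them, from 24.9 CPM (17.8 to 33.8, 40 transcripts) to 58.3 CPM (51.0 to 66.3, 233 transcripts). Its thinned share was 0.0884% (0.0441 to 0.158) and 0.273% (0.214 to 0.342), against the 3.56% or more of T cells given above. In cells with 2 to 4 transcripts of the myeloid genes, Pdcd1 was at 23.1 and 75.4 CPM (log2 1.71, 1.06 to 2.42). In those with 5 or more it was at 27.4 and 36.7 CPM, and the log2 interval held 0 (0.42, -0.35 to 1.26). In CRPR2, Pdcd1 was higher in the Folr2 or F13a1 gate than in the Mrc1 gate, by 3.92-fold (2.75 to 5.64). In RPR2 both gates had 7 cells with Pdcd1, or 0.310% (0.125 to 0.638) and 0.236% (0.0949 to 0.485) of cells, and 1 cell of the former held 8 of its 14 transcripts. Lag3 in myeloid cells was at 215 CPM (193 to 239) in RPR2 against 344 CPM (326 to 362) in CRPR2, or log2 0.68 (0.51 to 0.85). Its highest value was in the Cd209a gate, at 404 CPM (334 to 485) and 540 CPM (455 to 637), though in CRPR2 the interval overlapped that of the Folr2 or F13a1 gate (413 CPM, 359 to 473). The Cd209a gate was 2.35-fold (1.74 to 3.19) and 1.85-fold (1.49 to 2.29) the neutrophil gate. In RPR2 myeloid cells Lag3 was level with T cells (T over myeloid 1.03-fold, 0.828 to 1.27), and in CRPR2 T cells were 2.52-fold (2.29 to 2.77) higher. Myeloid cells with both Lag3 and Havcr2 numbered 64 of 13681 in RPR2 and 339 of 28330 in CRPR2. Lag3 alone or with others was in 288 and 1175 of these cells and Havcr2 in 2283 and 6759. The larger number in CRPR2 is therefore not a measure of pairing.

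Among cells with neither gate, 19.3% of 477 genes were 2-fold or more higher in CRPR2, and 2 members were, Pdcd1 (10.5 to 21.2 CPM) and Lag3 (83.9 to 168 CPM). The make-up of this class was unequal, since NE-gate cells were 18035 of 133849 in RPR2 and 225897 of 304987 in CRPR2. Within NE-gate cells, 4.2% of 476 genes were 2-fold or more higher and no member was. Lag3 was at 163 CPM (145 to 181, 324 transcripts) in RPR2 against 175 CPM (170 to 180, 4204 transcripts) in CRPR2, or log2 0.11 (-0.06 to 0.27). Over all cells Lag3 was 1.98-fold (1.88 to 2.09) higher in CRPR2, where NE-gate cells held 56.0% of its transcripts. Lag3 was also higher in CRPR2 within T cells, myeloid cells, endothelial-gate cells and the cells that met no gate. The part of cell make-up in the Lag3 ratio over all cells was not tested. In endothelial-gate cells the log2 ratios were 1.56 (1.16 to 1.97) for Pdcd1, 0.89 for Lag3 and 1.38 for Havcr2. In cells that met no gate they were 2.74 (2.32 to 3.18), 0.98 and 1.46. Pdcd1 was low in both, at 10.8 and 31.7 CPM in endothelial-gate cells and 12.3 and 81.9 CPM in cells that met no gate. Both classes were also split by the leukocyte genes Ptprc and Laptm5, which were chosen after values were seen. Endothelial-gate cells without these genes had log2 ratios of 0.85 (0.32 to 1.39) for Pdcd1, 0.68 for Lag3 and 0.65 for Havcr2. Cells that met no gate had 1.67, 0.51 and 1.12 without these genes, and 2.00, 0.74 and 0.34 with either. Ratios above 0 were thus not confined to T cells, and the source of these transcripts was not tested. Pdcd1 in NE-gate cells was at 3.51 CPM (1.41 to 7.24) and 6.79 CPM (5.78 to 7.91), against a mean of 2.23 and 2.25 CPM over the 20 negative control probes and below the highest probe in each section (10.5 and 10.1 CPM). Havcr2 was at 98.3 CPM (85.1 to 113) and 64.9 CPM (61.8 to 68.3), lower in CRPR2 by a log2 ratio of -0.60 (-0.81 to -0.38).

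In NE-gate cells without the leukocyte genes Ptprc and Laptm5 (chosen after values were seen), Lag3 was at 155 CPM (137 to 174) and 169 CPM (164 to 175), and in NE-gate cells with either leukocyte gene it was at 267 CPM and 258 CPM, 1.73-fold (1.20 to 2.43) and 1.52-fold (1.37 to 1.69) higher. Havcr2 was at 36.7 CPM (28.5 to 46.6) and 31.4 CPM (29.1 to 33.8) without these genes and at 899 CPM and 546 CPM with either. The log2 ratio of Havcr2 between sections was -0.72 (-0.99 to -0.44) with either, and without them the interval held 0 (-0.23, -0.59 to 0.15). With more neuroendocrine transcripts in the cell, Havcr2 was lower, from 233 CPM (2 to 4 transcripts) to 64.0 CPM (20 or more) in RPR2 and from 182 to 40.6 CPM in CRPR2. Lag3 was not, at 119 CPM (75.5 to 179) and 161 CPM (137 to 189) in RPR2 against 114 CPM (100 to 129) and 179 CPM (170 to 187) in CRPR2. Lag3 was also higher in NE-gate cells with Mki67 or Top2a than in those with neither, by 1.93-fold (1.50 to 2.50) in RPR2 (203 against 105 CPM) and 1.95-fold (1.80 to 2.11) in CRPR2 (205 against 105 CPM), whereas the intervals of Pdcd1 held 1 (0.932-fold, 0.158 to 6.36, and 1.09-fold, 0.768 to 1.57). Lag3 also lay above the control probes in endothelial-gate cells (55.8 and 103 CPM), and whether the Lag3 probes bind another transcript was not tested.

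**Figure D5:**
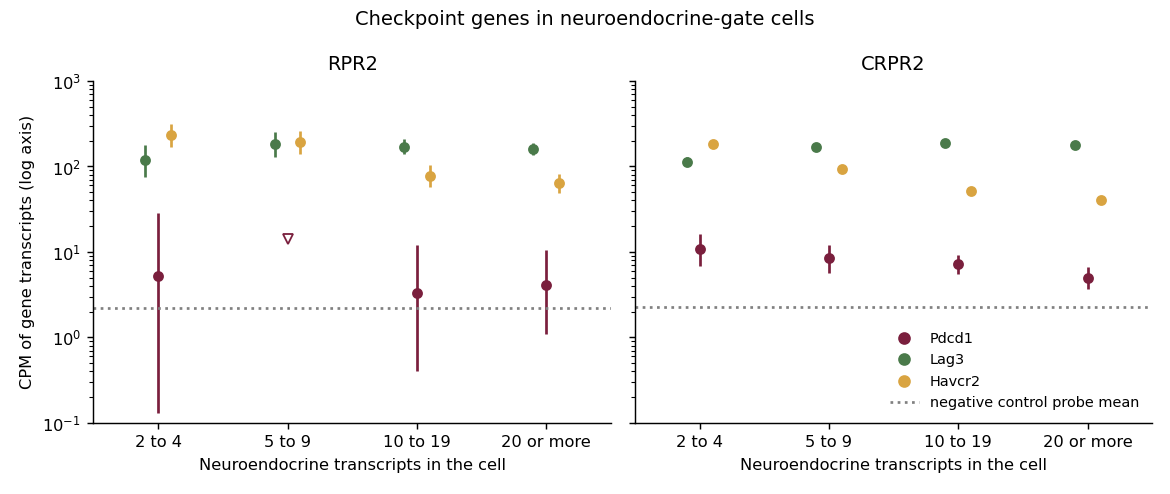
Level of Pdcd1, Lag3 and Havcr2 in CPM (y axis, log scale) in NE-gate cells grouped by their number of neuroendocrine transcripts (x axis), in RPR2 and CRPR2, with exact Poisson intervals. The dotted line is the mean of the negative control probes (2.23 and 2.25 CPM), and the open triangle is the limit that a count of 0 allows. Havcr2 is lower with more neuroendocrine transcripts (233 to 64.0 CPM and 182 to 40.6 CPM), and Lag3 is not (119 to 161 CPM and 114 to 179 CPM).

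The small classes had few transcripts. In the B cell gate without Cd3d or Cd3e, Pdcd1 was at 19.5 CPM (2 transcripts in 1212 cells) in RPR2 against 450 CPM (47 transcripts in 1157 cells) in CRPR2, and Lag3 at 146 CPM (81.7 to 241) and 718 CPM (565 to 900). Cells with Cd8a but no Cd3d or Cd3e had Pdcd1 at 124 CPM (33.7 to 317) and 401 CPM (248 to 613), and Lag3 at 61.8 CPM (7.49 to 223) and 515 CPM (340 to 750). The cytotoxic gate, cells with 2 or more transcripts of Prf1 and Gzmb and no Cd3, typical of natural killer cells, had no Pdcd1 transcript in 193 RPR2 cells, which allows a share of up to 1.55% when a count of 0 is taken to allow 3 cells, and 6 transcripts in CRPR2, all in 1 of 183 cells.

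The levels over cell classes were also compared with those of other genes. Over 26 points (13 classes in each section, which share their libraries) and 420 genes that no gate uses, the log2 levels most correlated with those of Pdcd1 were Ms4a6b (Pearson r = 0.73), Ctla4 (0.72), S100a4 (0.70), Psmb8 (0.70) and Trp53 (0.67). For Lag3 they were Epsti1 (0.78), Psmb8 (0.75), Tubb3 (0.70), Hif1a (0.69) and Bax (0.66), and for Havcr2 the myeloid genes Alox5ap (0.94), Mpeg1 (0.93), Clec4a3 (0.90), C5ar1 (0.89) and Ltc4s (0.88). Pdcd1 and Lag3 ranked 10 in each other's order (r = 0.62), while in the order of Havcr2, Lag3 ranked 61 (r = 0.42) and Pdcd1 120 (r = 0.22).

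The level per Cd3 transcript needs no gate. Over all cells, there were 5.19 Pdcd1, 12.1 Lag3 and 40.1 Havcr2 transcripts per 100 transcripts of Cd3d and Cd3e in RPR2, and 18.2, 40.3 and 87.8 in CRPR2, with log2 ratios of 1.81 (1.69 to 1.93), 1.74 (1.66 to 1.82) and 1.13 (1.09 to 1.18). For Lag3 and Havcr2 these sums are mostly from cells that are not T cells.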

How the data were processed

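Xenium In Situ was run by the authors on 1 FFPE block that held both genotypes, with a panel of 379 genes and 100 added genes. For each section the authors deposited a matrix of raw transcript counts, by feature and by segmented cell, with no scaling. Of 541 features, the 479 genes and the 20 negative control probes were used. The build and the version of the on-instrument software are not given in the sources used here, and the processing notes of the submitters name Seurat 4.4.0. Segmentation by nuclear expansion assigns transcripts near a nucleus to its cell, so transcripts of adjoining cells can be joined. Cell positions and the other experiments were not used here.

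Cells under 20 gene transcripts were left out. Levels are CPM over summed cells with exact Poisson intervals. Ratios have exact conditional intervals and shares Clopper-Pearson intervals, at 95%. For shares, cells were thinned to 50 transcripts (seed 1). Across genes, a 2-fold ratio was counted among genes with at least 20 transcripts, and a section at 0 was set to 3 counts as a bound. Likeness used log2(CPM + 10) of genes reaching 50 CPM in a class. The myeloid, neutrophil, cytotoxic, B, NE and endothelial gates needed 2 transcripts and the others 1, and a cell took the first gate met, in the order T, myeloid, cytotoxic, B, Cd8a, NE, endothelial and rest. Within the myeloid gate the order was neutrophil (2 or more of Csf3r, Cxcr2 and Ly6g), Cd209a, Folr2 or F13a1, Mrc1 and other. The endothelial gate used Pecam1, Kdr, Vwf, Plvap and Eng. The NE gate used Chga, Chgb, Scg2, Scg3, Scg5, Snap25, Celf3, Gria2, Insm1, Neurod1 and Ly6h, among others; some gate genes are not reported here.

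Genes named are the members, gate genes, the panel genes of the checkpoint, cytotoxic and cycling lists, the 5 most alike and the 5 most raised with each member; Ptprc and Laptm5 were added after their values were seen. Sostdc1 strata, the Ctla4 and cycling strata and the measure per Cd3 transcript were chosen after seeing the data. The members and lists were chosen with earlier results of these data known. Alternatives were the minimum transcripts, the gates, mixed cells, thinning and the level per cell. The intervals were tested on simulated Poisson counts, which leave out clustering of transcripts within cells. The thinning was tested on the RPR2 counts of Pecam1 against their expected share. The tools were scipy 1.17.1, matplotlib 3.10.9, numpy 2.4.6 and pandas 2.3.3 under Python 3.11.15.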

Additional observations from a re-analysis of the deposited data

How the results depend on the processing

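Of 188 alternatives, 166 left a value within its counting interval (counts of genes, within 1.5 times), 22 moved it further, and all 179 log2 ratios and ratios of shares stayed above 0. Some of the 166 could not move. A minimum of 10 or 50 transcripts per cell does not alter shares thinned to 50. A T gate of 2 or more transcripts does not alter myeloid cells or cells with neither. Leaving out mixed cells does not alter cells with neither. Leaving out T cells that met another gate, and myeloid cells with markers of NE, endothelial or B cells, moved the log2 ratio of Havcr2 in T cells with Cd8a from 0.73 to 0.12, of Pdcd1 in T cells without Cd8a from 1.83 to 2.12, of Lag3 there from 1.87 to 2.49 and of Lag3 in myeloid cells from 0.68 to 0.45. A myeloid gate of 1 or more transcripts gave 0.85 for Lag3 and 0.42 for Havcr2 in myeloid cells (0.31 with 2 or more). A myeloid list without Mrc1 and Cd68 gave 0.56 for Havcr2 in myeloid cells, and 0.45 in cells with neither (0.28 before). The level per cell gave 0.94 for Lag3 and 0.57 for Havcr2 in myeloid cells. The number of genes 2-fold higher with Pdcd1 in both sections was 5 of 306 tested, and 3 of 225 after thinning. With Havcr2 it was 27 of 276, 17 of 219 with a T gate of 2 or more transcripts and 13 of 158 without mixed cells, so fewer genes were also tested in these. The cause of the other moves was not tested. No paired analysis was possible because each genotype had 1 section. The precision is limited by low counts, since Lag3 had 16 transcripts and Havcr2 40 in RPR2 T cells with Cd8a, and no alternative stands in for a second mouse.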
